A study of Rattus norvegicus with 48 samples.

Results

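The levels of 5 mature rat miRNAs, rno-miR-6329, rno-miR-6324, rno-miR-3473, rno-miR-3559-3p and rno-miR-674-5p (written without rno- from here on), were followed in the livers of rats given thioacetamide (TAA), a hepatotoxicant that liver enzymes activate. They were taken by name from a small RNA sequencing table of 764 mature miRNAs, of which 664 had at least 1 read, and they had been picked because earlier comparisons of these same libraries with their controls showed them changed by TAA. Their differences from controls are therefore given as descriptions, without a p-value. All libraries came from male Sprague-Dawley rats, and the treated rats received TAA once a day at 4.5 mg/kg (low dose), 15 mg/kg (middle dose) or 45 mg/kg (high dose) for 3, 7, 14 or 28 days (written 3-d and so on). Each of the 12 treatment conditions had 3 rats, and each time point had its own control group of 3 rats given vehicle alone, which makes 48 libraries in 16 groups. The 5 miRNAs had been labelled as restricted to rodents, and that label could not be checked here because the table lists rat miRNAs.

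A miRNA is cut from a hairpin-shaped precursor RNA, first in the nucleus by Drosha and then in the cytoplasm by Dicer. Either side of the hairpin, the 5p or the 3p arm, can be loaded into an Argonaute protein, and the arm left over is usually degraded, so that both arms share their transcription but not their stability. The loaded arm finds messenger RNAs mainly through its seed, the bases just after its 5′ end. The mature sequences are shown first because the seed decides which other miRNAs could share targets with the members. They are from RefSeq on the rat assembly GRCr8, written 5′ to 3′ with the seed (bases 2 to 8) in capitals.

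miR-6329: aAUGUGACucagcuaucugaaca
miR-6324: uCAGUAGGccagacagcaagcac
miR-3473: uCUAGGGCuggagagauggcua
miR-3559-3p: aUGUAGUAcugagucugucgug
miR-674-5p: gCACUGAGaugggaguggugua

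The 5 seeds all differed, and none was found in another rat mature miRNA of the reference, so the members form no seed family. Their loci lay apart in the genome (GRCr8), given here by the mature sequences: miR-6329 at chr8:61334292-61334314 on the minus strand, miR-6324 at chr11:48801342-48801364 on the minus strand, miR-3473 at chr13:42051730-42051751 on the plus strand, miR-3559-3p at chrX:73660153-73660174 on the minus strand and miR-674-5p at chr3:124507180-124507201 on the plus strand. The first 4 fell within the spans of protein-coding genes: Rdx, which encodes the membrane-cytoskeleton linker radixin, Brwd1, a bromodomain protein, Zranb3, a DNA annealing helicase of the replication stress response, and Zdhhc15, a protein palmitoyltransferase. Whether they sit in introns or exons is not given in the annotation used here. The locus of miR-674 lay in no protein-coding span, and its nearest protein-coding gene was Spred1, an inhibitor of Ras-MAPK signalling.

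The hairpins of miR-3559 and miR-674 are shown because both of their arms were counted in these libraries. Capitals mark the mature arms that the reference lists, which are both arms for miR-3559 (5p, then 3p) and the 5p arm for miR-674.

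miR-3559 hairpin: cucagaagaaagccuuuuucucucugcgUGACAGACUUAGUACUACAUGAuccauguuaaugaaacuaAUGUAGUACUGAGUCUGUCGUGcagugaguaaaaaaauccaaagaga
miR-674 hairpin: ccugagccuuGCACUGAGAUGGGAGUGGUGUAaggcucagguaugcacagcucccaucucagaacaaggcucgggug

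The sequence of miR-3473 set it apart from the other members. Its bases 6 to 21, written as DNA GGCTGGAGAGATGGCT and searched on both strands, occurred in 92 of 33469 promoter windows of 300 bases (0.275%), the most of 693 mature rat miRNAs searched in the same way with their own most frequent run of 16 bases. No such run was found for 646 of those miRNAs (93.2%), and the next highest count was 11, for miR-466b-3p. Reads that came from such copies cannot be told apart from reads of the miR-3473 precursor, and this limit applies to every value of miR-3473 given here.

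Depth was high in all libraries but 1. The summed miRNA counts ran from 4829217 to 14906217 in 47 libraries, and 1 control 3-d library (replicate 1) held 293331, so that the members rested on 2 to 8 reads there. Levels are given as reads per 1 M miRNA reads (RPM) after upper quartile scaling (normalized RPM). Across the 301 miRNAs that reached 5 RPM in at least 3 libraries, a filter which all 5 members passed, 3 libraries stood apart from their own groups. The shallow control 3-d library correlated with the other libraries of its group at 0.887 and 0.894. The high dose 3-d library of replicate 24 was closest to a control 28-d library (r = 0.996, against 0.978 and 0.981 with its own group), and its miR-34a-5p, a p53 target, was at 33.5 normalized RPM against 254 and 290 in the other 2 rats. The low dose 28-d library of replicate 29 was closest to a low dose 14-d library (r = 0.993, against 0.977 and 0.979 within its group). The choice of these 3 was made after seeing the data. In all, 20 of the 48 libraries were closest to a library of another group, among them the high dose 7-d libraries of replicate 26 (r = 0.992 with a middle dose 28-d library, against 0.977 and 0.982 in its group) and replicate 27 (0.992 with a low dose 14-d library, against 0.977 and 0.985 in its group). Replicate 25 of high dose 7-d was closest to a high dose 3-d library (r = 0.989, against 0.982 and 0.985 in its group). Thus no high dose 7-d library was closest to its own group, and the same held for every control 3-d and middle dose 3-d library. Replicate 7 of high dose 14-d was closest to a control 7-d library (r = 0.994, against 0.988 and 0.989 in its group). Replicates 8 and 9 of high dose 14-d were closest to each other (r = 0.995). In replicates 7, 8 and 9 miR-34a-5p was at 39.45, 105.8 and 75.5 normalized RPM. It was at 22.9 to 31.04 in the 14-d controls and at 344 to 1080 in the low and middle dose 14-d libraries. The labels were kept throughout. The liver miRNA miR-122-5p stood at 19333 to 70947 normalized RPM and ranked 8 by mean level, as a check of the labelled tissue.

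miR-6329 was the most abundant member and the one farthest above its controls. Its 12 control libraries lay between 22.6 and 43.98 normalized RPM (median 30.3), its 36 treated libraries between 36.3 and 235 (median 87.6), and 34 of the 36 exceeded the highest control. The 2 that did not were the high dose 3-d library that resembled controls and 1 high dose 14-d library at 43.3. Every one of the 12 conditions had its 3 libraries above its own 3 controls, where 21.2% of all comparisons over the 301 tested miRNAs were separated in that way.

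The level peaked in the high dose 7-d group, with 213, 231 and 235 normalized RPM against 29.8, 28.1 and 27.7 in the 7-d controls. That is a 7.94-fold difference (log2 fold change 2.99, standard error 0.15), and with any 1 of the 3 treated libraries left out the log2 fold change was 2.96 to 3.03. The second group in order was low dose 14-d (75.8, 171 and 185) and the third was middle dose 28-d (129, 113 and 189). At the high dose the 14-d libraries (43.3, 54.1 and 45.7) were far below the 7-d libraries and close to their controls (27.8, 39.01 and 36.3), with a log2 fold change of 0.47 (SE 0.19), the smallest of the 12. The lowest group was the control 3-d group (22.6, 25.4 and 30.8). Of the 15 pairs of groups that were neighbours in order of their means, 14 overlapped, and the high dose 7-d group was the one separated from the group below it.

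miR-674-5p stood highest at the high dose 7-d and at the low dose 7-d and 14-d. The 12 control libraries ran from 4.89 to 13.7 normalized RPM (median 10.4) and the 36 treated libraries from 9.35 to 35.7 (median 17.2), with 25 above the highest control. The low dose 7-d libraries held 26.2, 31.01 and 27.7 against 11.1, 9.34 and 10.5 in the controls, a 2.75-fold difference. The middle dose 7-d libraries held only 14.3, 11.3 and 12.2, which was 1.22-fold the controls, while the high dose 7-d libraries again held 31.5, 20.3 and 35.7. At 7-d the middle dose was thus the lowest of the 3 doses. The low dose 14-d libraries were high as well (21.7, 21.6 and 34.3), and all 15 pairs of neighbouring groups overlapped.

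miR-3559-3p showed its widest scatter at 3-d. The 3 high dose 3-d libraries held 132, 71.6 and 39.9 normalized RPM and the middle dose 3-d libraries 100.2, 32.2 and 48.9, against 16.9, 28.1 and 31.5 in the controls. The lowest high dose value was again that of replicate 24. The low dose 7-d libraries held 56.5, 63.4 and 55.6, above every 7-d control (31.9, 33.1 and 22.4). The low dose 28-d libraries held 27.4, 67.2 and 31.7 and overlapped their controls (25.6 to 36.7), where the value of 67.2 was that of replicate 29. At 14-d the order ran from low dose (56.1, 69.0 and 82.1) through middle dose (51.9, 51.7 and 51.2) to high dose (32.04, 28.9 and 35.7), and the high dose libraries overlapped the controls (40.3, 27.9 and 34.6). Over all treated libraries 26 of 36 exceeded the highest control (40.3).

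miR-3473 was a low-abundance member, between 4.14 and 19.7 normalized RPM in controls and between 4.92 and 34.8 in treated libraries. The highest control value, 19.7, was the shallow 3-d library and rested on 7 reads. At 7-d all treated libraries lay above all controls. The controls held 7.76, 6.38 and 5.81, low dose libraries 15.3, 14.2 and 13.8, middle dose libraries 14.1, 12.6 and 19.03, and high dose libraries 25.6, 18.9 and 27.3. The high dose 7-d group was 3.60-fold its controls. At 28-d the high dose libraries (6.77, 5.51 and 4.92) overlapped the controls (6.07, 4.14 and 6.10), with 1 of the 3 above them, while the middle dose libraries (13.5, 8.60 and 13.8) lay above them.

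miR-6324 behaved unlike the other 4. At 3-d its low dose libraries (10.6, 6.39 and 0.701 normalized RPM) and high dose libraries (7.05, 0.680 and 5.37) lay below all 3 controls (11.3, 13.2 and 13.5). At 7-d its low dose libraries (18.6, 19.5 and 18.7) and middle dose libraries (18.4, 16.3 and 17.3) lay above all 3 controls at 1.43-fold and 1.31-fold, and at 14-d and 28-d its group means were above the control means at every dose. It was almost absent from 3 libraries that were deeply sequenced. These were a low dose 28-d library (2 reads, 0.195 RPM, exact 95% binomial interval 0.0236 to 0.704), a low dose 3-d library (5 reads, 0.636 RPM, 0.207 to 1.48) and a high dose 3-d library (8 reads, 0.755 RPM, 0.326 to 1.49), where the intervals cover counting error only. None of them was 1 of the 3 libraries that stood apart over all miRNAs. The other 45 libraries were at or above 4.43 normalized RPM. The low dose 28-d group accordingly read 0.177, 17.5 and 14.5 and overlapped its controls, although 2 of its 3 rats were above all of them.

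The control libraries of miR-6324 lay at 11.3, 13.2 and 13.5 normalized RPM at 3-d, 15.0, 12.6 and 12.2 at 7-d, 5.79, 10.9 and 6.48 at 14-d, and 4.43, 7.15 and 6.25 at 28-d. The 14-d and 28-d controls lay below all 3-d and 7-d controls, although no difference between control groups passed the test in the fit of 48 libraries. The low dose libraries held 18.6, 19.5 and 18.7 at 7-d and 17.1, 16.3 and 24.5 at 14-d. The fold over controls was 1.43 at 7-d and 2.49 at 14-d, from treated means of 18.95 and 19.3 and control means of 13.2 and 7.73 normalized RPM.

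**Figure D1:**
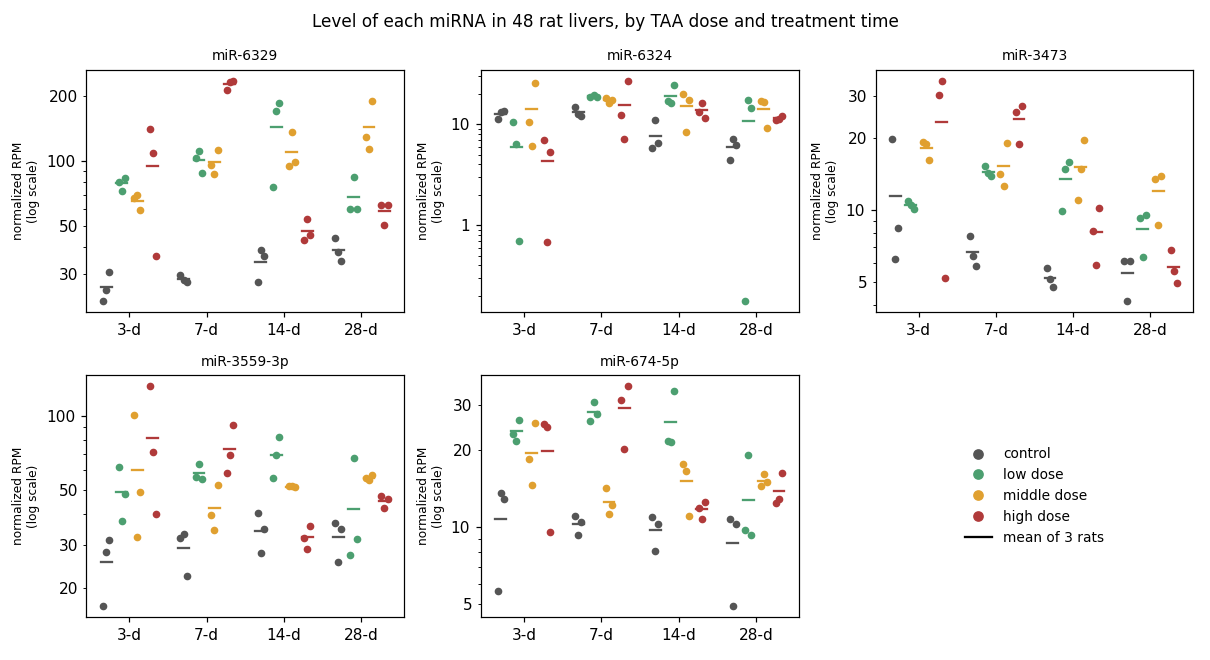
Normalized RPM (log axis) of each of the 5 miRNAs in the 48 libraries, grouped by treatment time; each point is 1 rat, each bar the mean of 3 rats, and the colour gives the dose. miR-6329 reached 213 to 235 at the high dose 7-d, and 3 treated libraries of miR-6324 lay under 1 normalized RPM. The lowest high dose 3-d library lay below the 3-d controls for miR-3473 and among them for miR-674-5p. For miR-6329 it lay at 36.3 against a highest control of 30.8.

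Calls of differentially expressed miRNAs (DEMs), defined as a fold change over 1.5 with an unadjusted p below 0.05 in edgeR's quasi-likelihood test, give the same picture in counts. The members were called higher in 38 of their 60 comparisons with controls and lower in none, where 12.1% of all comparisons over the 301 tested miRNAs were called higher. Since the members were chosen on these contrasts, nothing is read from that difference. With Benjamini-Hochberg adjustment the count was 23, against 11.1% of all comparisons called in either direction.

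miR-6329 was called in 11 of 12 conditions, miR-3559-3p in 8, miR-3473 in 7, miR-674-5p in 7 and miR-6324 in 5. With adjusted p-values the counts were 6, 5, 6, 4 and 2 in the same order, and none was left at 3-d, at high dose 14-d or at low or high dose 28-d. Without the 3 libraries that stood apart, miR-3473 was called in 10 conditions, miR-674-5p in 8 and miR-3559-3p in 7, with 11 for miR-6329 and 5 for miR-6324. In that setting the low dose 28-d log2 fold change of miR-3559-3p was -0.13 in place of 0.38, that of miR-674-5p 0.15 in place of 0.56 and that of miR-6324 0.32 in place of 0.85, and the high dose 3-d value of miR-3473 was 2.15 in place of 1.27. Only middle dose 14-d, low dose 14-d and middle dose 28-d had all 5 members called, and low dose 28-d had 1. At 3-d, 3 members were called higher at the low dose (9.97% of all tested miRNAs were), 2 at the middle dose (1.66%) and 2 at the high dose (6.98%). At 7-d the counts were 4 (18.3%), 2 (12%) and 4 (17.9%) in the same order of doses, at 14-d 5 (22.9%), 5 (12%) and 2 (5.65%), and at 28-d 1 (3.65%), 5 (20.9%) and 3 (13%). The log2 fold change was positive in 57 of the 60 comparisons, and in 54.8% of all, where 3 small values changed sign with the scaling: miR-3559-3p at high dose 14-d (-0.09, and 0.13 with library size alone), miR-3473 at low dose 3-d (0.17, and -0.12 with DESeq2 size factors) and miR-6324 at middle dose 3-d (0.12, and -0.10 with DESeq2 size factors). The median log2 fold change of the 5 in a condition lay between 0.47 (high dose 14-d) and 1.497 (high dose 7-d), where the median of all tested miRNAs lay between -0.06 and 0.28. The members just inside the call were miR-6329 at high dose 28-d, at 1.501-fold, and miR-3559-3p at middle dose 14-d, at 1.51-fold, and just outside it were miR-3473 at low dose 28-d, at 1.54-fold with an unadjusted p over 0.05, and miR-3559-3p at middle dose 7-d, at 1.45-fold. miR-6324 was the member with the widest spread, from -1.56 at the high dose 3-d to 1.32 at the low dose 14-d. Its 5 calls became 3 without replicate 13 or without replicate 15 of the 14-d controls.

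**Figure D2:**
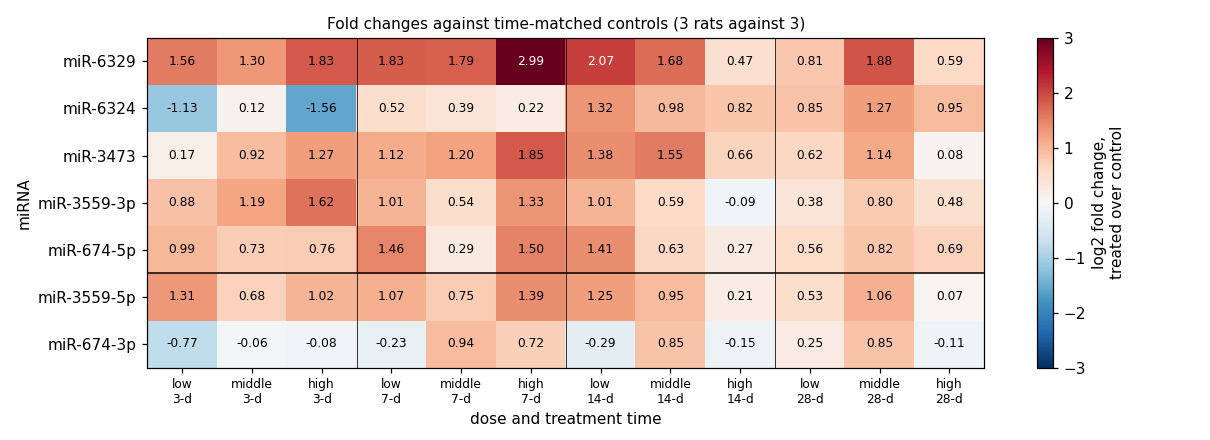
Log2 fold change of treated over time-matched control libraries (3 rats against 3) for the 5 miRNAs and, under the line, the other arms miR-3559-5p and miR-674-3p, in the 12 treatment conditions. miR-6329 was positive in all 12 columns with its peak of 2.99 at high dose 7-d, miR-6324 was negative at the low and high dose 3-d, and miR-674-3p was negative in 7 columns, of which high dose 14-d turned to 0.07 when scaled by library size alone and middle and high dose 3-d to 0.27 and 0.46 without the 3 libraries that stood apart.

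The other arms of the 2 precursors played no part in choosing the members, and they were tested. They share precursors, libraries and controls with miR-3559-3p and miR-674-5p, so these tests are not independent of that choice. The other arms are miR-3559-5p, mature sequence on GRCr8 at chrX:73660193-73660214 on the minus strand, and miR-674-3p.

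miR-3559-5p: uGACAGACuuaguacuacauga

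miR-3559-5p rose with its partner arm in most of the conditions where either was called. It was called in 7 of 12 conditions, always higher, and in 6 of those 7 the adjusted p of edgeR was also below 0.05. In low dose 7-d it held 275, 288 and 289 normalized RPM against 133, 145 and 127 in controls (2.11-fold, adjusted p = 0.000119), and in middle dose 28-d it held 409, 341 and 327 against 162, 165 and 190 (2.08-fold, adjusted p = 0.00116). It was not called at the high dose 14-d (118, 170 and 181 against 165, 111 and 128) or 28-d. Only miR-3559-3p was called at the middle and high dose 3-d, and only miR-3559-5p at the middle dose 7-d. The share of reads on the 5p arm stayed between 68.9% and 88.3% of both arms in all 48 libraries, so 5p was the more abundant arm throughout. At the high dose 3-d this share was 70.7 to 77.3%, below the 78.2 to 84.2% of the 3-d controls.

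miR-674-3p followed its partner in some conditions and not in others. It rose in 4 of 12 conditions, namely middle dose 7-d (log2 fold change 0.94, edgeR adjusted p = 0.000526), high dose 7-d (0.72, adjusted p = 0.0400), middle dose 14-d (0.85, adjusted p = 0.00231) and middle dose 28-d (0.85, adjusted p = 0.00805). miR-674-5p was also called higher in 3 of these 4 (log2 fold changes of 1.497 at high dose 7-d, 0.63 at middle dose 14-d and 0.82 at middle dose 28-d) and not at middle dose 7-d (0.29). The miR-674-3p call at high dose 7-d was lost without replicate 26 of that group, where the log2 fold change was 0.58 and under the fold threshold, and without the filter on low counts (0.52). At the low dose its 3-d, 7-d and 14-d fold changes were -0.77, -0.23 and -0.29, none of them called, while miR-674-5p stood at 0.99, 1.46 and 1.41 in the same libraries. Background for both arms was 18.1% of comparisons called in either direction. The 4 conditions with miR-674-3p called carry the replicate numbers 25 to 27 and 31 to 39. Replicates 28, 29 and 30, of low dose 28-d, held 111, 54.6 and 117 normalized RPM of miR-674-3p against 74.3 to 87.4 in controls. Whether the rise of miR-674-3p goes with dose or with replicate number was not tested.

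The 2 arms therefore took different shares of the miR-674 reads in different groups. In the controls 3.85 to 15.4% of the miR-674 reads were 5p, the lowest value being the shallow library (2 of 52 reads, exact 95% binomial interval 0.469 to 13.2%). The low dose libraries had 27.2, 29.2 and 32.4% at 3-d, 32.3, 27.6 and 29.9% at 7-d, and 24.9, 27.1 and 30.8% at 14-d, all above every control and above every middle and high dose library. At the low dose 28-d the shares were 8.05, 26.02 and 7.40%, where the value of 26.02% belonged to replicate 29, the library that resembled low dose 14-d over all miRNAs. Without that library the low dose 28-d group lay within the control range. The low dose libraries of 3-d, 7-d and 14-d carry the replicate numbers 40 to 48, and those of 28-d carry 28 to 30. What the numbers stand for is not given in the labels. For the 3-d to 14-d groups, low dose and replicate number cannot be told apart.

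The middle dose 7-d libraries had the opposite pattern, with 8.01, 7.50 and 7.52%, below all 7-d controls (11.9, 9.88 and 13.2%). The high dose 7-d libraries were split, at 21.4, 11.6 and 23.1%. These shares are descriptions with no test, since miR-674-5p was chosen for its difference from controls. They hold within each library and do not depend on the scaling between libraries.

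**Figure D3:**
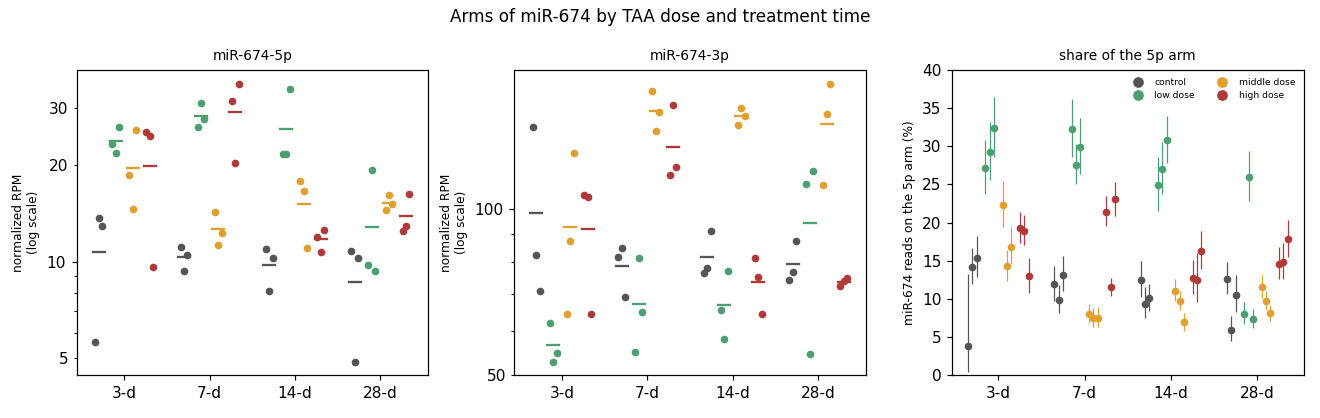
Normalized RPM (log axis) of miR-674-5p and miR-674-3p and the percentage of miR-674 reads on the 5p arm, by treatment time and dose; points are single rats, bars in the first 2 panels are means of 3 rats, and vertical lines in the third panel are exact 95% binomial intervals of each library. Low dose libraries from 3-d to 14-d lay at 24.9 to 32.4% 5p, and at 28-d only replicate 29 did.

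Differences between the doses at the same time point compare treated groups with each other, although the control libraries enter the shared estimate of the spread. The members were not chosen on these differences, but the same treated libraries entered the choice through the comparison with controls. The tests are therefore not independent of that choice, and nothing is read from their count against the background. The differences between doses were tested in 1 edgeR fit of all 48 libraries with adjustment over 3612 tests. Of the 48 tests for miR-6329, miR-3473, miR-3559-3p and miR-674-5p, 11 passed (background 10.2%), 6 of them for miR-6329 and with both directions present. miR-6324 had been singled out earlier for the order of its fold changes along dose and time, so its differences between doses are not counted as tests. None of its 12 passed the same threshold, and with them the count was 11 of 60.

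For miR-6329 the place of the highest dose turned over between 7-d and 14-d. At 7-d the high dose exceeded the low dose by 1.16 (SE 0.28, adjusted p = 0.00816) and the middle dose by 1.20 (SE 0.28, adjusted p = 0.00756) on the log2 scale. At 14-d it lay below the low dose by 3.02-fold (log2 difference -1.59, SE 0.29, adjusted p = 0.00167) and below the middle dose by 2.31-fold (-1.21, SE 0.29, adjusted p = 0.00775). At 28-d the middle dose was the highest, above the low dose by 1.07 (SE 0.28, adjusted p = 0.0128) and with the high dose lower than it by 2.46-fold (-1.30, SE 0.29, adjusted p = 0.00463). No library of the groups compared overlapped in any of these 6 differences. The middle against low difference at 28-d was lost without replicate 39 of middle dose 28-d (0.83, adjusted p = 0.0869) and without the filter on low counts (0.86, adjusted p = 0.0581), and the other 5 kept their calls under every setting and every left-out library tried. The high dose libraries carry the replicate numbers 25 to 27 at 7-d and 7 to 9 at 14-d. Those of the low dose carry 46 to 48 at 7-d and 40 to 42 at 14-d. In all differences between doses, dose and time cannot be told apart from replicate number.

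For miR-674-5p the middle dose was the exception at 7-d, below the low dose (-1.17, SE 0.30, edgeR adjusted p = 0.0111) and below the high dose (high minus middle 1.21, SE 0.30, adjusted p = 0.00888). Both calls held under every setting and left-out library tried. In the same libraries miR-674-3p was higher at the middle than at the low dose by the same size (1.17, SE 0.24, adjusted p = 0.00303), so that the arms of 1 precursor differed in opposite directions. miR-674-3p was also higher at the middle than at the low dose at 14-d (1.14, adjusted p = 0.00372) and lower at the high than at the middle dose at 14-d (-1.002, adjusted p = 0.00816) and 28-d (-0.95, adjusted p = 0.0100). Its excess of the high over the low dose at 7-d (0.95, adjusted p = 0.0102) was lost without replicate 46 of low dose 7-d (0.83, adjusted p = 0.0536) and without the filter on low counts (0.81, adjusted p = 0.0704).

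At 14-d the high dose was the lowest of the 3 doses in the means of all 5 members. Beside miR-6329, the high dose lay below the low dose for miR-674-5p (-1.14, SE 0.31, edgeR adjusted p = 0.0140), miR-3559-3p (-1.10, SE 0.33, adjusted p = 0.0294) and its partner arm miR-3559-5p (-1.04, SE 0.30, adjusted p = 0.0219). The libraries of both groups did not overlap in any of the 3. All 3 calls were lost without replicate 42 of low dose 14-d (adjusted p = 0.0917, 0.0993 and 0.0735 in that order), and miR-3559-3p also without replicate 7 or 8 of high dose 14-d or replicate 41 of low dose 14-d (adjusted p = 0.0671, 0.0882 and 0.0546), miR-3559-5p also without replicate 7 of high dose 14-d or replicate 41 of low dose 14-d (0.0991 and 0.0596). All 3 were also lost with scaling by library size alone (-0.77, -0.74 and -0.69) and without the filter on low counts (-0.86, -0.83 and -0.78). For miR-3473 the same difference was -0.73 (SE 0.37, adjusted p = 0.213).

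miR-3473 was higher at the high than at the low dose at 3-d (1.16, SE 0.36, edgeR adjusted p = 0.0348). The groups overlapped, with 30.1, 34.8 and 5.19 normalized RPM against 10.9, 10.4 and 10.1, and the call was lost without any 1 of the low dose 3-d libraries (adjusted p = 0.0710 to 0.0878), without replicate 22 (0.133) or without replicate 23 (0.223) of the high dose, in DESeq2 (0.0557), with DESeq2 size factors (0.0622), without the filter on low counts (0.0940) and in a fit of those 6 libraries (0.234). miR-3559-5p was lower at the high than at the middle dose at 28-d (-0.99, SE 0.30, adjusted p = 0.0291), a call lost without replicate 20 or 21 of the high dose or replicate 37 of the middle dose (0.0870, 0.0683 and 0.0874).

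The 3 libraries that stood apart had a large part in the count. Without them 25 of the 48 tests passed, while 23.7% of all tests over the 301 miRNAs did, and without replicate 24 of high dose 3-d alone 18 passed. The 25 were 9 for miR-3473, 8 for miR-6329 and 4 each for miR-3559-3p and miR-674-5p, and none of the 11 calls was reversed. In that fit the high dose of miR-3473 exceeded the low dose at 3-d by 1.63 (adjusted p = 1.785e-05).

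**Figure D4:**
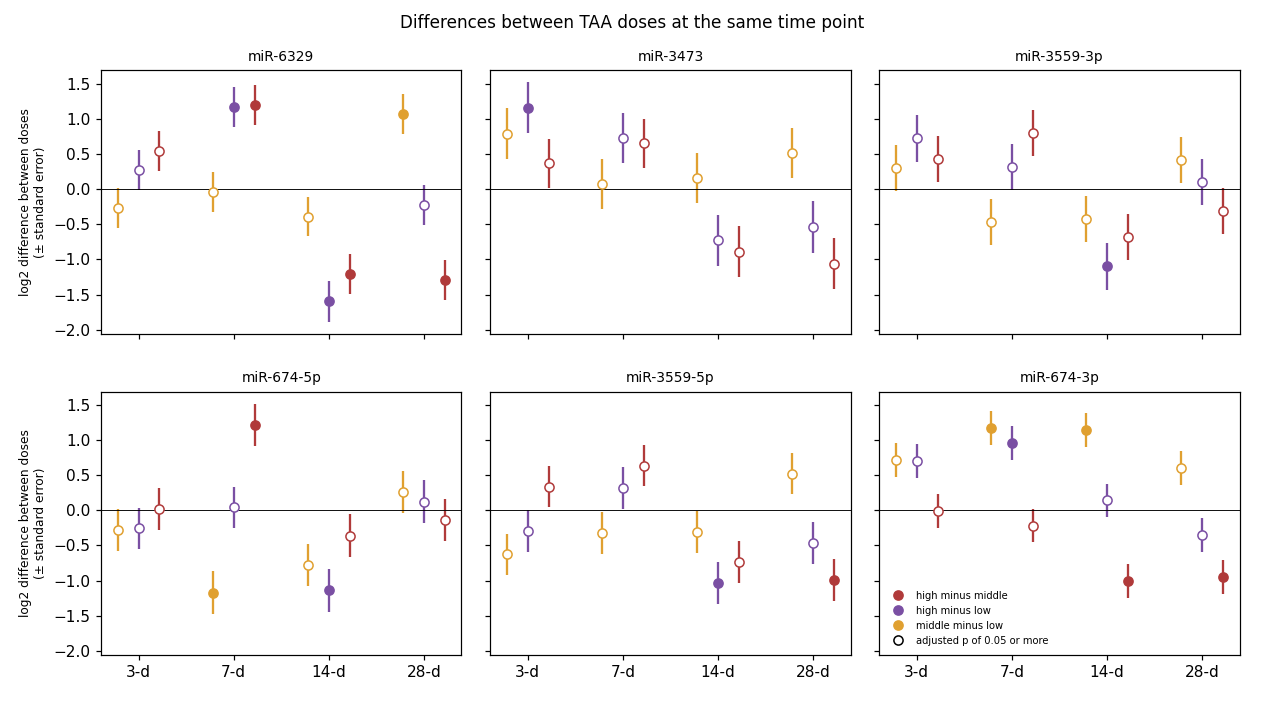
Log2 differences between doses at the same time point (first minus second, with standard errors, from the fit of 48 libraries) for 4 members and the 2 other arms; filled points have an edgeR adjusted p under 0.05 over all tests. The high dose of miR-6329 lies above the others at 7-d and below them at 14-d, and the middle minus low points at 7-d lie at -1.17 for miR-674-5p and 1.17 for miR-674-3p.

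The turn of the high dose with time was itself tested, as the high minus low difference at a later time minus that at an earlier time. Of 24 such tests for the 4 members 3 passed (background 1.22%), or 3 of 30 with miR-6324. They reuse treated libraries that entered the choice of the members and are likewise not independent of it. Each group has its own replicate numbers, so dose and time cannot be told apart from these numbers here. Without the 3 libraries that stood apart 15 of the 24 passed, and 19.3% of all such tests did. For miR-6329 the high minus low difference fell by 2.76 on the log2 scale from 7-d to 14-d (SE 0.41, edgeR adjusted p = 5.538e-05) and by 1.87 from 3-d to 14-d (SE 0.40, adjusted p = 0.00868). For miR-3559-3p it fell by 1.82 from 3-d to 14-d (SE 0.47, adjusted p = 0.0404), a call lost when any 1 of 8 libraries was left out (adjusted p = 0.0543 to 0.126). The same change for miR-3473 was -1.88 (SE 0.52, adjusted p = 0.0531).

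Between the control groups none of 30 tests of the 5 members passed in edgeR, and none had an unadjusted p below 0.05, while 13% of all such tests over the 301 miRNAs passed. DESeq2 also called 0. For miR-6324 the 28-d controls were 2.23-fold lower than the 7-d controls (log2 difference -1.16) with a standard error of 0.69 in the fit of 48 libraries (adjusted p = 0.329). In a fit of those 6 libraries alone the same difference had a standard error of 0.23 and passed (adjusted p = 0.0227). The 48-library fit takes its spread for miR-6324 from all groups, including those with a library near 0.

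Cell type markers, as miRNAs known from hepatocytes, red blood cells, leukocytes, stellate or smooth muscle cells, bile duct epithelium and endothelium, were read beside these results because in bulk liver a change in the share of a cell type and a change in RNA per cell cannot be told apart. None of the 26 markers was at 0 over the 48 libraries together. The summed level of 4 hepatocyte miRNAs was higher at the low dose than in controls from 3-d to 14-d without overlap, for example 296612 to 355005 against 213537 to 242876 normalized RPM at 7-d, and 214604 to 236914 at the middle dose 7-d. Those are the low dose groups with the high 5p share of miR-674. Of the 48 comparisons of the 4 hepatocyte miRNAs with controls, 2 were called higher and 6 lower, with 1 in each direction at low dose 14-d. Other sums also moved without overlap at the low dose. Stellate or smooth muscle was higher at 3-d and 14-d, and endothelium was higher at 3-d and lower at 14-d. Leukocyte was lower at 7-d and 14-d, and bile duct epithelium was lower at 7-d. The summed level of 4 red blood cell miRNAs was lower at the middle dose 7-d (1664 to 1928) and the high dose 7-d (786 to 3416) than in controls (3815 to 6241), and 20 of their 48 comparisons with controls were called lower. In the 3-d controls the red blood cell sum ran from 4426 to 81096, where the highest treated value was 9240. The hepatocyte sum ran there from 103835 to 228372, where the lowest treated value was 203869. This uneven control group enters every 3-d comparison with controls. The other 4 lists had 15 calls higher and 22 lower in 216 comparisons. The part of these shifts in the results for the members was not tested.

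The members resembled one another only in part. By the root mean square difference between centred log2 group means over the 16 groups (pseudocount 1), miR-3559-3p and miR-674-5p were at 0.27, miR-3473 and miR-3559-3p at 0.40, and miR-6324 was at 0.76 to 0.92 from the other 4. miR-6329 was at 0.49 to 0.56 from miR-3473, miR-3559-3p and miR-674-5p. A miRNA with the same level in every group would be at 0.46 from miR-3559-3p and 0.52 from miR-674-5p. It would be at 0.60 from miR-3473 and 0.84 from miR-6329. Among the other 300 tested miRNAs the ones nearest to miR-6329 were miR-190b-5p (0.38), miR-3559-5p (0.41) and miR-466b-5p (0.43), those nearest to miR-3473 were miR-449a-5p (0.36), miR-15b-3p and miR-466b-5p (both 0.37), and those nearest to miR-3559-3p were miR-185-5p (0.20), miR-146b-5p (0.23) and miR-3068-5p (0.24). miR-674-5p had the closest match of all, miR-466c-5p (0.15), followed by miR-449a-5p (0.25) and miR-7a-5p (0.26). The nearest to miR-6324 were miR-219a-1-3p (0.56), miR-140-3p (0.58) and miR-200c-3p (0.58), where a miRNA with the same level in every group would be at 0.66. All of these points share the same libraries and scaling, and the distances are descriptions.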

How the data were processed

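Small RNA libraries (Illumina TruSeq) from 48 rat livers, 1 per rat, were sequenced by the authors on a HiSeq2000. After adaptor removal by the authors, reads between 18 and 25 bases long were counted per mature miRNA and precursor with miRDeep2 on miRBase release 21; per the labels, FastQC was used and the genome build was rn5. The deposited values are raw read counts. For the 71 mature miRNAs listed under several precursors, the precursor with the most reads was used. Samples were grouped by the dose and duration in the labels.

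Counts were scaled by upper quartiles, and the 301 miRNAs that reached 5 RPM in 3 or more of the 48 libraries were tested with edgeR 4.0.16 (quasi-likelihood F-test, R 4.3.3), after tests on simulated data. Each treatment condition was compared with its time-matched controls in a fit of 6 libraries; differences between doses, control groups and time points were contrasts of 1 fit of 48 libraries, with Benjamini-Hochberg adjustment over all miRNAs and contrasts of each family. Totals ran from 293331 to 14906217 (median 10237542); no 2 libraries of a group were alike within sampling noise (chi-square per degree of freedom of at least 88.7). Intervals on counts and shares are exact, 95%, and cover counting error only. Standard errors were derived from the fold change and F.

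The members and marker lists were chosen with earlier results of these data known. Named besides the members were their other arms, the 3 tested miRNAs nearest to each member, miRNAs sharing a seed, those of a numbered rat series called in at least 6 conditions, and miR-122-5p. miR-34a-5p was added to describe libraries. Sequences and promoter windows are from RefSeq (GRCr8); the entry of miR-674-3p was missing. Alternatives were TMM, DESeq2 1.42.0 size factors and Wald test, library size alone, other filters, edgeR's exact test, pooled controls, a fit of 48 or of 6 libraries, the mean over precursors, adjusted p-values, each library left out in turn and, chosen after seeing the data, 3 libraries left out together.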

Additional observations from a re-analysis of the deposited data

Results flagged for a closer look

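The effect of the high against the low dose differed between time points in 4 of the tests run, by the test of that difference itself (edgeR, adjusted over 1806 tests, 22 of which passed). The values are log2 differences, later minus earlier time point. The treated libraries used here entered the choice of the members, so the tests are not independent of it. Dose and time cannot be told apart from replicate number in these tests.

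For miR-6329 the high minus low difference was 1.16 in the 7-d libraries and -1.59 in the 14-d libraries. Between these the change was -2.76 (SE 0.41, edgeR adjusted p = 5.538e-05), and this passed under every setting and every left-out library tried. Against the 3-d libraries, where the difference was 0.27, the 14-d value differed by -1.87 (SE 0.40, adjusted p = 0.00868), which missed the threshold without the filter on low counts (-1.46, adjusted p = 0.0501). Without the 3 libraries that stand apart these values were -2.76 and -2.26.

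For miR-3559-3p the high minus low difference was 0.72 at 3-d and -1.10 at 14-d, a change of -1.82 (SE 0.47, edgeR adjusted p = 0.0404). It was lost without replicate 22 of high dose 3-d (-1.28, adjusted p = 0.126), and without any 1 of replicates 44 and 45 of low dose 3-d, 7 and 8 of high dose 14-d, 41 and 42 of low dose 14-d or 20 of high dose 28-d (adjusted p = 0.0543 to 0.0998), with DESeq2 size factors (0.0607), with library size alone (0.0552) and without the filter on low counts (0.0776), and it was -2.14 (adjusted p = 0.000207) without the 3 libraries that stand apart.

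For miR-674-3p the high minus low difference was 0.95 at 7-d and -0.35 at 28-d, a change of -1.30 (SE 0.34, edgeR adjusted p = 0.0462). The call was lost when any 1 of 30 of the 48 libraries was left out (adjusted p = 0.0502 to 0.124), the highest without replicate 30 of low dose 28-d (-1.12). The change was -1.58 (adjusted p = 6.558e-05) without the 3 libraries that stand apart.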

How the results depend on the processing

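No called difference changed sign under any alternative run. The 38 calls of the members against controls were 34 to 40 with 1 library left out, 41 without the 3 libraries that stand apart, 23 with adjusted p-values and 18 when every library had to reach 5 RPM, where miR-6324, miR-3473 and miR-674-5p were no longer tested. The 11 calls of the other arms were 10 to 14 under all alternatives. The 11 differences between doses were 9 to 18 with 1 library left out, 7 without the filter and 25 without the 3 libraries (23.7% of all such tests). The 0 differences between controls became 1 (miR-6324) in fits of 6 libraries. The 3 differences between time points were 2 to 11 with 1 library left out (11 without replicate 24 of high dose 3-d, 9 without replicate 29 of low dose 28-d, 7 without replicate 1 of the 3-d controls, 6 without replicate 40 of low dose 14-d), 5 with DESeq2 and 15 without the 3 libraries (3.43% and 19.3% of all such tests). The cause of these shifts was not tested. The 23 calls of the numbered rat series were 51 without the filter. Of the 15 nearest miRNAs, 12 were also nearest with a pseudocount of 0.25.

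Against upper quartile scaling, the median log2 fold change of all miRNAs in a condition moved by -0.24 to 0.12 with TMM, -0.23 to 0.13 with DESeq2 size factors and -0.21 to 0.28 with library size alone. The shallow 3-d control library, with 2 to 8 reads per member, limits the precision of the 3-d comparisons. No paired analysis was possible because the replicate numbers in the labels run from 1 to 48 and no 2 groups share any.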

Other observations

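The members miR-6329, miR-6324 and miR-3559-3p carry numbers from 2 runs of consecutive miRBase names given to rat miRNAs, one around miR-3559 and one around miR-6329. Of 84 other mature miRNAs in these runs, 48 had a read and 7 passed the filter. Their 84 comparisons with controls had 23 calls (27.4%, against 18.1% over all tested miRNAs). Of these 7, miR-3559-5p, the other arm of the member miR-3559-3p, was called in 7 conditions, always higher. It gave 7 of the 23 calls, and no other was called in 6 or more conditions. miR-3577, chosen after its values were seen, was called in 4 conditions, always lower, with log2 fold changes from -2.38 to 0.11, and in 7 conditions without the filter or in DESeq2 and 1 with all controls pooled. The list was chosen with earlier results of these data known, and these counts are descriptions.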
